A study of Mus musculus with 30 samples.

Results

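The genes described here are 10 mouse genes that carry glucose into the cell, turn it into pyruvate and release lactate: Slc2a1, Hk1, Hk2, Pfkp, Aldoa, Pgk1, Eno1, Pkm, Ldha and Slc16a3. They were chosen by name, for their place in this pathway, and all 10 were found by Ensembl identifier among the 29861 genes of the deposited expression table. RNA was measured in tail fibroblasts of UMHet3 mice, a genetically mixed stock, all from the line labelled CCG-HTA-1 and used at passage 4. The culture medium was rich in glucose and held no pyruvate, and oxygen was ambient. The cells received DMSO as control (6 libraries) or 1 of 8 compounds (3 libraries each), and RNA was taken 48 h later and depleted of ribosomal RNA, which gives 30 libraries in 9 groups. The compounds were Antimycin A, an inhibitor of respiratory complex III, Dihydrorotenone, a rotenone derivative that inhibits complex I, and Diphenyleneiodonium Cl, an inhibitor of flavin-containing oxidoreductases. The others were Cardamonin, a plant chalcone, Clofilium tosylate, a potassium channel blocker, AEG 3482, Podofilox, which binds tubulin, and a compound labelled BerberineA. Doses are not part of the labels used here, so each group stands for a treatment as it was applied. All libraries carry the label of 1 line, so the replicates were taken as cultures or libraries of it and not as separate mice. The p-values therefore measure the spread between these libraries only. The series text speaks of 5 DMSO replicates, whereas 6 libraries carry that label and all 6 were used. The mouse age is 5 to 8 weeks in the labels, except for Dihydrorotenone replicate 1, whose label gives 8 to 11 weeks. A label error and a separate culture could not be told apart for that library. Library numbers run on within each group, so a library batch and a treatment cannot be told apart.

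Glucose enters most cells through the transporter encoded by Slc2a1 and is trapped as glucose-6-phosphate by hexokinases. Phosphofructokinase commits it to glycolysis, and the later enzymes yield pyruvate, ATP and NADH. When mitochondria take up little pyruvate or NADH, lactate dehydrogenase turns pyruvate into lactate, which restores NAD, and monocarboxylate transporters export it. Cultured fibroblasts use this route even when oxygen is present, and cells whose respiratory chain is blocked are known to depend on it. In bulk RNA, fewer cells of a type and less RNA per cell cannot be told apart.

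Levels are in transcripts per 1000000 (TPM), a unit scaled to transcript length and to the library total, so levels of different genes can be set side by side. Over the 30 libraries the mean level was highest for Pkm at 1615 TPM and Aldoa at 1010 TPM. It was lowest for Pfkp at 18.6 TPM and Hk2 at 27.3 TPM. The 10 genes together took 0.307 to 0.668% of the TPM listed in a library. All 10 fibroblast markers examined, among them Col1a1, averaged 1 TPM or more in each of the 9 groups, while the keratinocyte gene Krt5, the muscle gene Myod1 and the adipocyte gene Plin1 were listed at 0 in every library. Of the same lists, Krt10 stood at 1.016 to 2.38 TPM, and the muscle genes Des and Acta1 reached 0.786 and 0.799 TPM. The summed level of the 10 fibroblast markers was 9965 to 11470 TPM in DMSO libraries and 3864 to 4892 TPM with Cardamonin, the lowest of the 9 groups. It was also below DMSO with Antimycin A (7882 to 8672 TPM), Clofilium tosylate (8535 to 9221 TPM), BerberineA (9218 to 9869 TPM), Diphenyleneiodonium Cl (9358 to 9842 TPM) and Podofilox (9371 to 9521 TPM). With Dihydrorotenone (8962 to 10050 TPM) and AEG 3482 (10900 to 12280 TPM) it overlapped DMSO. The 4 macrophage or leukocyte markers summed to 13.1 to 16.7 TPM in DMSO, mostly from Adgre1, and to 3.26 to 11.0 TPM in the treated libraries, 3.26 to 3.69 TPM of it with Cardamonin. The 4 melanocyte markers summed to 4.54 to 6.94 TPM in DMSO, to 16.1 to 18.6 TPM with Antimycin A, to 11.97 to 12.1 TPM with Dihydrorotenone, to 12.5 to 15.8 TPM with Diphenyleneiodonium Cl, to 12.1 to 13.1 TPM with BerberineA, to 9.71 to 14.5 TPM with Clofilium tosylate, to 6.52 to 7.90 TPM with Podofilox and to 1.27 to 2.22 TPM with Cardamonin or AEG 3482. Except with Cardamonin and AEG 3482 that sum was mostly Mlana, at up to 16.97 TPM, while Dct and Tyr stayed at or below 0.123 TPM. Their part in the results below was not tested. The deposited values keep no read counts, so the depth behind each value is unknown.

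Promoter sequence is shown for the 4 genes whose window holds at least 2 matches to ACGTG, the core of the hypoxia response element, through which hypoxia-inducible factors are known to act on many genes of this pathway. The 250 bases before each RefSeq start were searched on both strands for that core and for the E-box, CACGTG, and all 10 genes matched an entry. The printed sequences run 5′ to 3′ in the direction of the gene, with the matches to either motif, on either strand, in capitals.

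Hk2: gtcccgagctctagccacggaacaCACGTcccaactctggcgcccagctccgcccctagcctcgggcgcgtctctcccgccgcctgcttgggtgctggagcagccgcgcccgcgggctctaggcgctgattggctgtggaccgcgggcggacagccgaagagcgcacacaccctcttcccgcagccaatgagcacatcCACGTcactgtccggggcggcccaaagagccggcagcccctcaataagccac
Pgk1: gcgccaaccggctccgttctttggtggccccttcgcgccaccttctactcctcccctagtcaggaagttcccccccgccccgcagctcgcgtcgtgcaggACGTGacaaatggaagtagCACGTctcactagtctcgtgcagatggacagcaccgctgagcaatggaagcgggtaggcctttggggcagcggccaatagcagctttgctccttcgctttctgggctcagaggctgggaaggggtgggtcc
Ldha: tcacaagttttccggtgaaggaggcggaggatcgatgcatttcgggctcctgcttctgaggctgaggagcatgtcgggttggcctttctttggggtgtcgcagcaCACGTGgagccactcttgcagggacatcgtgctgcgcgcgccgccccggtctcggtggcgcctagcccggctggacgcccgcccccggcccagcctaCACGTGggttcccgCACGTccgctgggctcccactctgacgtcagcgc
Slc16a3: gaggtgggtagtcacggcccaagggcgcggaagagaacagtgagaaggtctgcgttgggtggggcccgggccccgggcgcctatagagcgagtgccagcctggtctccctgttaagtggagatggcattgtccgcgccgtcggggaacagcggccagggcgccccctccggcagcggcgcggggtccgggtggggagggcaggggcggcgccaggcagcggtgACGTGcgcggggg

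These stretches end 1 base before a RefSeq start of transcription, except that of Slc16a3, which is cut to its first 236 bases because GENCODE places an exon behind them. On GRCm38.p6 the stretches lie at chr6:82774455-82774704 on the minus strand for Hk2, chrX:106186850-106187099 on the plus strand for Pgk1, chr7:46845554-46845803 on the plus strand for Ldha and chr11:120948817-120949052 on the plus strand for Slc16a3. Those of Ldha and Slc16a3 lie inside the GENCODE gene spans, which begin at chr7:46841475 and chr11:120948480, so they precede a later start than the first annotated one. The Ldha stretch holds 3 runs in capitals, of which 2 are E-boxes. An E-box reads the same on both strands and contains the core on each, so it gives 2 matches, and the Ldha stretch has 5 in all, at positions -145, -144, -48, -47 and -34 from the start. The Hk2 stretch has matches at -226 and -52, and the Pgk1 stretch at -150 and -131. Slc16a3 has its 2 matches at -27 and -14, the second in the part not printed. In all, 7 of the 10 genes had the core in at least 1 window, against 18.5% of 27025 genes, and 1 of the 10, Ldha, had an E-box, against 6.86%. Some genes have several windows, which raises such a count. By window, the core was in 8 of 17 for the 10 genes, against 16.6% of all 32851. Of the 8, 2 were overlapping Aldoa windows with the same site. Another window each of Aldoa, Pkm and Ldha held no core. Hk1, Pfkp and Eno1 had neither. The windows of the 10 genes were richer in G and C, with a median of 66.4%, than all windows, with a median of 52.4%, and this difference bears on how often any such letters occur. A match is a description of the letters and not of a bound site.

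The 8 compounds fell into different patterns over the 10 genes. With Cardamonin and with AEG 3482, Slc2a1, Hk1 and the enzyme genes Aldoa, Pgk1, Eno1 and Pkm rose while the lactate genes Ldha and Slc16a3 fell. With Podofilox 8 genes rose, including both lactate genes. With Antimycin A Slc2a1 and Hk2 rose while Aldoa, Pgk1, Eno1, Ldha and Slc16a3 fell, and with each of the other 4 compounds between 1 and 4 genes changed. A gene was called changed when limma, fitted on log2(TPM + 1) over all 30 libraries and 13644 genes, gave a Benjamini-Hochberg adjusted p below 0.05.

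With Cardamonin 7 of the 10 genes rose and 3 fell, where 70.3% of all genes tested were called. With AEG 3482 7 rose and 2 fell, where 68.1% of all genes were called. Both counts therefore stand close to a background in which most genes changed, and nothing is read from them alone. The median log2 fold change of the 10 genes was 0.69 with Cardamonin, against 0.03 over all genes tested, and 0.66 with AEG 3482, against 0.10. With Podofilox 8 of 10 rose and none passed the threshold downwards, with limma at an adjusted or an unadjusted p under 0.05, where 46.2% of all genes were called. Its median log2 fold change was 0.49 over the 10 genes and 0.04 over all genes.

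With Antimycin A 2 genes rose and 5 fell, where 37.3% of all genes were called. The median log2 fold change was -0.14 over the 10 genes and 0.03 over all genes. With Diphenyleneiodonium Cl 4 genes rose, where 25.7% of all genes were called, and the medians were 0.19 and 0.02. Aldoa alone rose with BerberineA, where 21.7% of all genes were called, and Slc2a1 alone rose with Clofilium tosylate, where 23.4% were called. Eno1 alone fell with Dihydrorotenone, where 14.4% of all genes were called. For these 3 compounds the share of the 10 genes called was below that over all genes, a difference that was not tested. The counts also changed with the processing and with the library left out, so nothing is read from them alone.

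**Figure D1:**
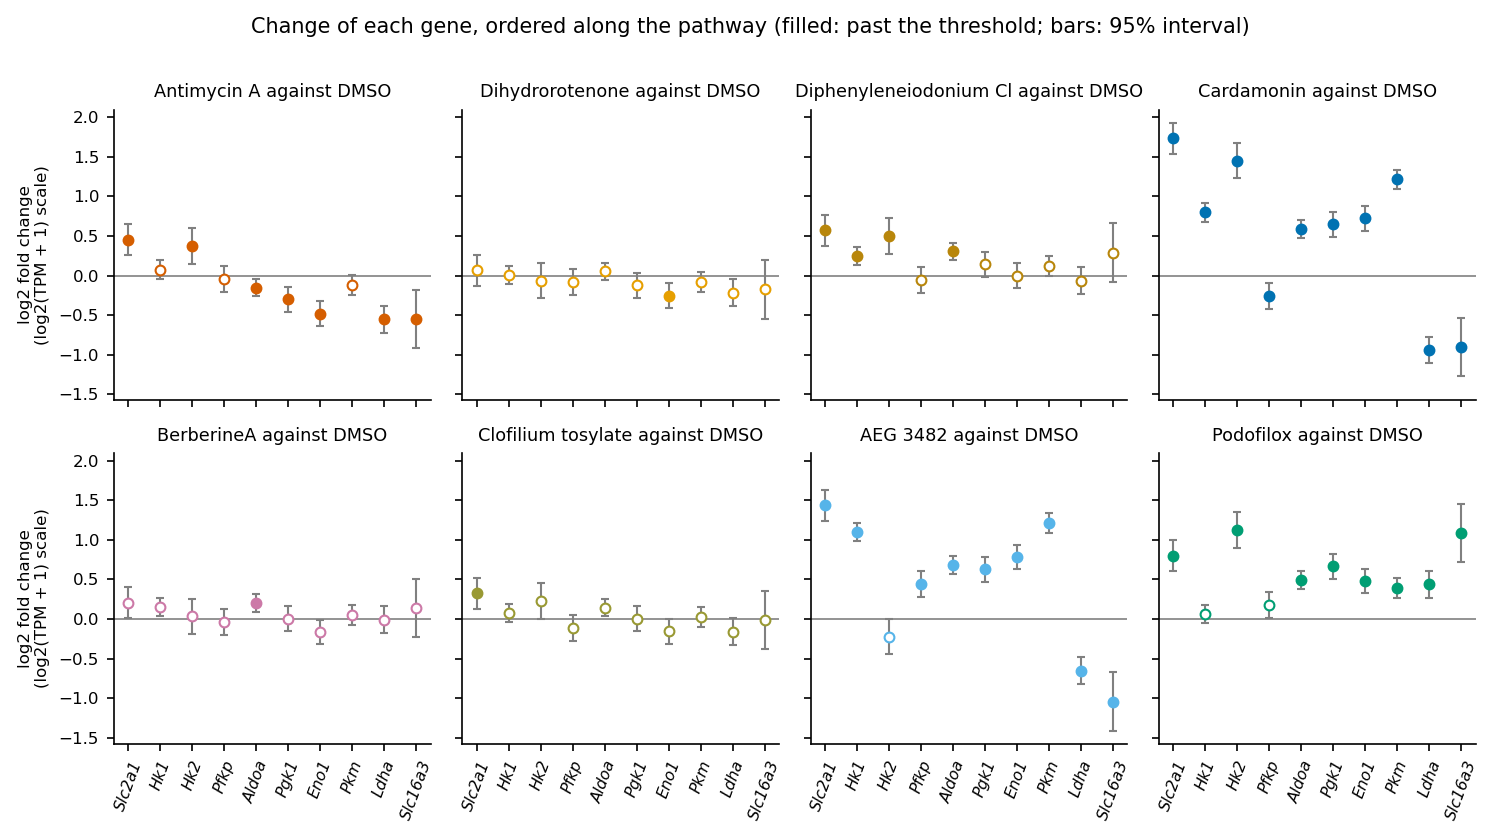
Change of each of the 10 genes, in pathway order on the x axis, for each compound against DMSO; the y axis is the log2 fold change on the log2(TPM + 1) scale, bars are 95% intervals, and filled points passed the threshold. Cardamonin and AEG 3482 are high at Slc2a1 and Pkm and low at Ldha and Slc16a3, Podofilox is above 0 at all 10 genes, and Antimycin A moves from above 0 at Slc2a1 to below 0 at Slc16a3.

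Slc2a1 (ENSMUSG00000028645, chr4:119108711-119137983 in the mm10 annotation) encodes GLUT1, the transporter that supplies basal glucose to most cells. Its level in the 6 DMSO libraries ran from 88.4 to 128 TPM with a median of 105 TPM. With Cardamonin the 3 libraries stood at 344, 346 and 372 TPM. With AEG 3482 they stood at 259, 309 and 298 TPM. All 6 libraries of these 2 compounds lay above every DMSO library, and the increases were 1.74 ± 0.09 (log2, SE, n = 3 against 6; limma adjusted p = 1.08e-14) and 1.44 ± 0.09 (limma adjusted p = 8.16e-13).

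Podofilox gave Slc2a1 levels of 199, 187 and 170 TPM, Diphenyleneiodonium Cl 151, 157 and 164 TPM, and Antimycin A 151, 134 and 151 TPM. All 9 of these libraries were also above the DMSO range. The transcript rose by 0.80 ± 0.09 with Podofilox (log2, SE; limma adjusted p = 1.14e-07), by 0.57 ± 0.09 with Diphenyleneiodonium Cl (limma adjusted p = 5.07e-05) and by 0.45 ± 0.09 with Antimycin A (limma adjusted p = 0.000399). With Clofilium tosylate the 3 libraries read 129, 138 and 132 TPM, just above the DMSO range, and the increase of 0.33 ± 0.09 passed the threshold (limma adjusted p = 0.0125). That call was lost without Clofilium tosylate replicate 2 (limma adjusted p = 0.0652). BerberineA, at 122, 123 and 121 TPM, and Dihydrorotenone, at 97.9, 117 and 118 TPM, lay within the DMSO range.

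In the order of group means, Slc2a1 ran from Cardamonin at 354 TPM through AEG 3482 at 289 TPM, Podofilox at 185 TPM, Diphenyleneiodonium Cl at 158 TPM, Antimycin A at 145 TPM and Clofilium tosylate at 133 TPM to BerberineA, Dihydrorotenone and DMSO. The libraries of Antimycin A and Clofilium tosylate overlapped, as did those of Dihydrorotenone and DMSO, while the other neighbours in this order did not. Of 5 other glucose transporter genes tested (Slc2a3, Slc2a6, Slc2a8, Slc2a10 and Slc2a12), 5 fell with Cardamonin and 4 fell with AEG 3482, with which Slc2a8 rose by 0.70 (limma adjusted p = 1.75e-06). Slc2a3, the high-affinity neuronal type, was at 1.75 to 1.93 TPM with Cardamonin and at 3.47 to 5.36 TPM in DMSO, and it fell by 0.93 on the log2 scale (limma adjusted p = 1.87e-08). Slc2a10 fell with 6 compounds, by 1.25 with Cardamonin, and rose by 0.32 with Podofilox (limma adjusted p = 0.0309).

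**Figure D2:**
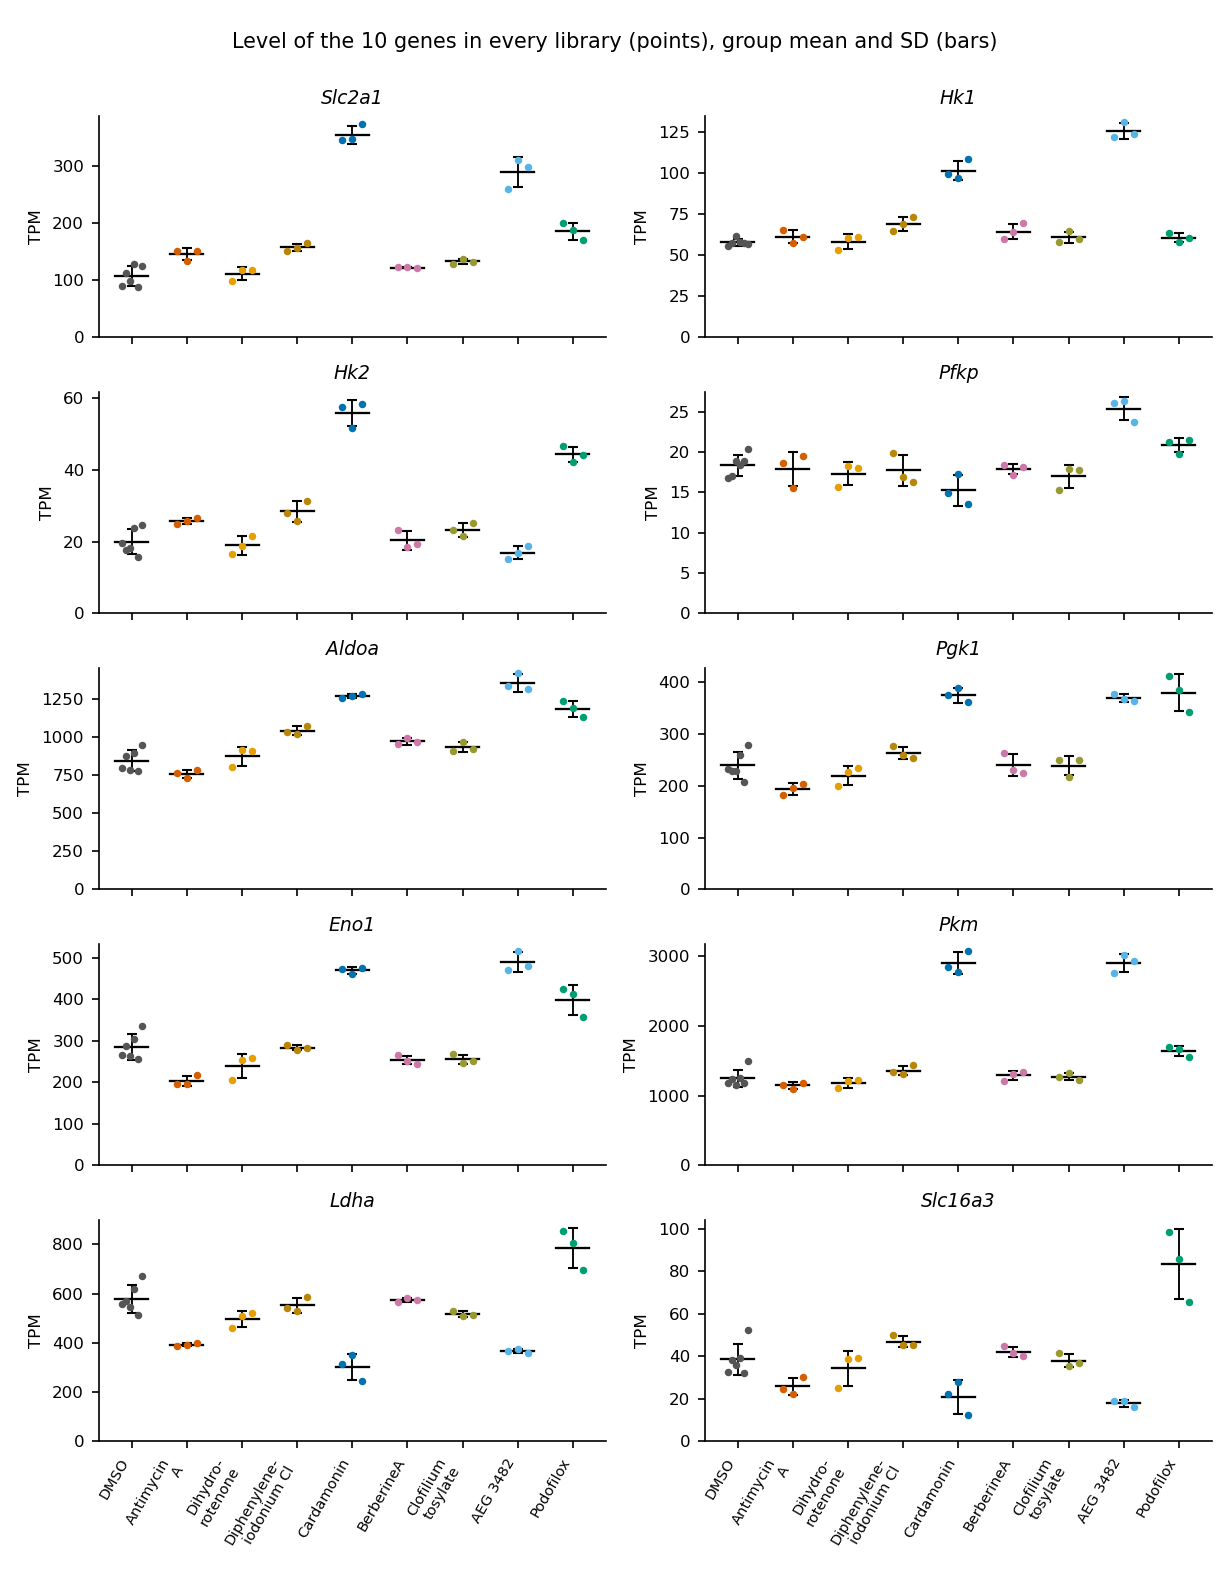
Level of each of the 10 genes in TPM (y axis, from 0) in every library of the 9 groups (x axis); points are libraries, wide bars are group means and error bars the SD. Slc2a1, Hk1 and Pkm are highest with Cardamonin and AEG 3482, Hk2 with Cardamonin and Podofilox, and Ldha and Slc16a3 with Podofilox.

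The 2 hexokinases, which phosphorylate glucose on entry, separated Cardamonin from AEG 3482. Hk1 (chr10:62268855-62379908), the widely expressed form, stood at 55.7 to 62.1 TPM in DMSO with a median of 57.5 TPM. Its 3 Cardamonin libraries read 99.5, 97.2 and 109 TPM and its AEG 3482 libraries 122, 131 and 124 TPM, all far above DMSO. It rose by 0.80 ± 0.06 with Cardamonin (log2, SE; limma adjusted p = 1.84e-12) and by 1.101 ± 0.06 with AEG 3482 (limma adjusted p = 4.76e-15). Diphenyleneiodonium Cl, at 65.0, 68.9 and 73.3 TPM, also stood above DMSO, with an increase of 0.25 ± 0.06 (limma adjusted p = 0.00162). In the other 5 groups Hk1 was at 53.1 to 69.6 TPM and passed no threshold.

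Hk2 (chr6:82725025-82774454), the inducible form, stood at 15.7 to 24.6 TPM in DMSO with a median of 18.9 TPM. With Cardamonin it read 57.5, 51.5 and 58.1 TPM and with Podofilox 46.5, 42.2 and 44.0 TPM, well above all DMSO libraries. With AEG 3482 it read 15.1, 16.7 and 18.7 TPM, at the low end of the DMSO range and overlapping it. It rose by 1.45 ± 0.11 with Cardamonin (log2, SE; limma adjusted p = 6.98e-12) and by 1.13 ± 0.11 with Podofilox (limma adjusted p = 4.19e-09). The difference for AEG 3482 was -0.22 ± 0.11 (limma adjusted p = 0.075). That value passed the threshold as a decrease under 3 other scalings of the libraries, at -0.29 to -0.33 (limma adjusted p = 0.0134 to 0.0202). Smaller increases passed with Diphenyleneiodonium Cl, at 28.1, 25.7 and 31.4 TPM (log2 0.50 ± 0.11, limma adjusted p = 0.00104), and with Antimycin A, at 25.01, 25.8 and 26.6 TPM (log2 0.37 ± 0.11, limma adjusted p = 0.00827), both just above the DMSO range.

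As a share of Hk1 and Hk2 together, Hk2 made up 25.4 ± 3.48% in DMSO (SD, n = 6), with a lowest value of 21.5%, a median of 24.7% and a highest of 30.1%. It made up 36.6, 34.6 and 34.9% with Cardamonin and 42.2, 41.9 and 42.2% with Podofilox. With AEG 3482 it made up 11.0, 11.3 and 13.1%. None of these libraries overlapped DMSO, and each of the 3 differences, of 9.92, 16.6 and -13.7 percentage points, had an exact 2-sided permutation p of 0.0119, the smallest that 3 libraries against 6 allow, and 0.0254 after Benjamini-Hochberg adjustment over the 32 share tests. Without DMSO replicate 2, 0 of the 3 passed the adjusted threshold, and without each other DMSO replicate 2 or 3 did. With 5 DMSO libraries the smallest exact p is 0.0179. With the 32 share tests adjusted together, shares fully apart from DMSO can then miss the threshold. A call lost in this way does not show that a share depends on the library left out.

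Phosphofructokinase catalyses the committed step, and Pfkp (chr13:6579768-6648777), the platelet form, was the least abundant of the 10 genes. It stood at 16.8 to 20.3 TPM in DMSO with a median of 18.6 TPM. With AEG 3482 it read 26.0, 26.3 and 23.8 TPM, above DMSO, and rose by 0.45 ± 0.08 (log2, SE; limma adjusted p = 2.28e-05). With Cardamonin it read 14.9, 17.3 and 13.5 TPM, partly below the DMSO range, and fell by 0.26 (limma adjusted p = 0.00548), a call lost without Cardamonin replicate 3 (limma adjusted p = 0.0729). In the other groups it stood at 15.3 to 21.4 TPM and passed no threshold.

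The other 2 phosphofructokinase genes moved more than Pfkp with 2 compounds. Pfkl, the liver form, stood at 64.7 to 72.8 TPM in DMSO and at 33.4 to 39.7 TPM with Cardamonin, and fell by 0.85 (limma adjusted p = 4.37e-10). With Antimycin A Pfkl stood at 39.0 to 46.3 TPM and fell by 0.64 (limma adjusted p = 4.5e-07), while Pfkm, the muscle form, fell by 0.24 (limma adjusted p = 9.03e-05). Pfkp made up 15.7 ± 0.86% of the 3 genes in DMSO (SD, n = 6), from 14.6 to 16.5%. Its share was 20.8, 19.4 and 21.1% with Antimycin A, 20.1, 22.04 and 19.5% with Cardamonin and 21.4, 21.9 and 20.9% with AEG 3482. All 9 libraries exceeded the DMSO range (exact permutation p = 0.0119 and adjusted p = 0.0254 for each). Without DMSO replicate 2, where the smallest exact p is 0.0179, 0 of these shares passed. The level of Pfkp itself rose with AEG 3482 only among these 3.

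Pfkfb3 makes fructose-2,6-bisphosphate, the strongest activator of phosphofructokinase. It stood at 20.4 to 27.4 TPM in DMSO, at 8.05, 10.7 and 6.403 TPM with Cardamonin, and at 4.98, 4.16 and 3.62 TPM with AEG 3482. With Podofilox it reached 57.4, 47.3 and 37.5 TPM. All 9 libraries lay outside the DMSO range, those of Podofilox above it and the other 6 below. Pfkfb3 fell by 1.41 on the log2 scale with Cardamonin (limma adjusted p = 6.3e-10) and by 2.23 with AEG 3482 (limma adjusted p = 1.34e-13), and rose by 0.96 with Podofilox (limma adjusted p = 1.55e-06). It also fell with Antimycin A, by 0.67 (limma adjusted p = 0.00027), and with Clofilium tosylate, by 0.46 (limma adjusted p = 0.0131). Tigar, whose product removes fructose-2,6-bisphosphate, rose by 1.13 with Cardamonin, 0.67 with AEG 3482 and 0.53 with Podofilox (limma adjusted p = 8.64e-14, 2.84e-09 and 4.48e-07).

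The 4 of the 10 genes that act between fructose-1,6-bisphosphate and pyruvate each rose with Cardamonin, AEG 3482 and Podofilox, where 70.3%, 68.1% and 46.2% of all genes were called in either direction. Aldoa (chr7:126795234-126800751) encodes the aldolase that splits fructose-1,6-bisphosphate. It stood at 777 to 949 TPM in DMSO, at 1262 to 1288 TPM with Cardamonin, 1316 to 1422 TPM with AEG 3482 and 1133 to 1238 TPM with Podofilox. It rose by 0.59, 0.68 and 0.49 (log2; limma adjusted p = 3e-10, 2.85e-11 and 3.52e-08). Aldoa also rose with Diphenyleneiodonium Cl, at 1033, 1024 and 1078 TPM (0.31 ± 0.05, limma adjusted p = 0.000105), and with BerberineA, at 957, 998 and 967 TPM (0.20 ± 0.05, limma adjusted p = 0.00666). All 6 of these libraries were above the DMSO range. With Antimycin A Aldoa read 763, 734 and 783 TPM, with 2 of 3 libraries below the DMSO range, and fell by 0.15 (limma adjusted p = 0.0268). That call was lost without Antimycin A replicate 1 (limma adjusted p = 0.0656) or 2 (0.124), or without DMSO replicate 2, 4 or 6 (0.0506 to 0.0592). The call for BerberineA was lost after quantile normalization (limma adjusted p = 0.0553) and in a fit of the 2 groups alone (0.0739).

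Pgk1 (chrX:106187100-106203699) encodes phosphoglycerate kinase, which makes the first ATP of the pathway. It stood at 208 to 279 TPM in DMSO, with a median of 231 TPM. It read 374, 389 and 361 TPM with Cardamonin, 377, 368 and 363 TPM with AEG 3482 and 412, 385 and 341 TPM with Podofilox. These 3 groups overlapped each other and stood above all other libraries, with increases of 0.65, 0.63 and 0.67 (log2; limma adjusted p = 3.24e-08, 6.96e-08 and 8.04e-08). With Antimycin A it read 182, 196 and 204 TPM, below the DMSO range, and fell by 0.30 (limma adjusted p = 0.00311).

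Eno1 (chr4:150236721-150248879) encodes the enolase that forms phosphoenolpyruvate. It stood at 255 to 335 TPM in DMSO, with a median of 277 TPM. It read 474, 460 and 475 TPM with Cardamonin, 471, 517 and 481 TPM with AEG 3482 and 425, 414 and 357 TPM with Podofilox, all above DMSO, and rose by 0.72, 0.78 and 0.48 (log2; limma adjusted p = 4e-09, 1.29e-09 and 8.71e-06). With Antimycin A it read 196, 195 and 218 TPM, below DMSO, and fell by 0.48 (limma adjusted p = 1.32e-05). With Dihydrorotenone it read 205, 254 and 259 TPM and fell by 0.25 (limma adjusted p = 0.0242). Dihydrorotenone replicate 1 was lowest of its group for all 10 genes, and without it the fall in Eno1 did not pass (log2 -0.15, limma adjusted p = 0.273). Its median-ratio scaling factor, which is low where genes in general read low, was 0.922, the lowest of any library. With that scaling the fall in Eno1 did not pass either (log2 -0.21, limma adjusted p = 0.0691).

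Pkm (chr9:59656368-59679375) encodes the pyruvate kinase of most tissues, whose M1 and M2 isoforms cannot be separated at the gene level. It stood at 1149 to 1487 TPM in DMSO with a median of 1213 TPM. It read 2835, 2769 and 3068 TPM with Cardamonin and 2747, 3010 and 2922 TPM with AEG 3482, above every library of the other 7 groups. It rose by 1.22 ± 0.06 with Cardamonin (log2, SE; limma adjusted p = 2.89e-15) and by 1.22 ± 0.06 with AEG 3482 (limma adjusted p = 5.13e-15). With Podofilox it read 1693, 1663 and 1554 TPM and rose by 0.40 ± 0.06 (limma adjusted p = 8.7e-06). With Antimycin A it read 1152, 1096 and 1184 TPM, and the difference of -0.12 missed the threshold (limma adjusted p = 0.133), though it passed after quantile normalization (-0.27, limma adjusted p = 0.0063) and when the 20 most abundant genes were left out of the scaling (-0.16, limma adjusted p = 0.044).

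Some of these transcripts share sequence with other genes, in part near-identical copies, so reads can be split between them. Of all 31-base words in the annotated transcripts, 54.7% were shared with other genes for Pgk1, 34.7% for Pkm, 28.5% for Eno1, 19.6% for Ldha and 17.0% for Aldoa. Counting only genes listed in the expression table, the shared part was 54.7%, 4.03%, 28.5%, 16.8% and 11.9%. The shared Ldha words were spread over 1481 other genes. Among the partners sharing most words, those listed reached at most 0.676 TPM for Aldoa, 0.256 TPM for Ldha and 0.232 TPM for Pkm. The near-copy Eno1b was itself listed at 135 to 326 TPM, and it rose with Cardamonin, AEG 3482 and Podofilox and fell with Antimycin A, as Eno1 did. With the listed near-copies added to Eno1 and Pgk1, the mean of Eno1 was 545 ± 50.1 TPM in DMSO (SD, n = 6) and 955 ± 52.4 TPM with AEG 3482 (SD, n = 3), and no count of changed genes against DMSO differed.

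Ldha (chr7:46841475-46855627) encodes the lactate dehydrogenase subunit that favours lactate formation, and it did not follow the enzymes before it. It stood at 513 to 672 TPM in DMSO with a median of 565 TPM. With Cardamonin it read 316, 350 and 246 TPM and with AEG 3482 366, 375 and 358 TPM, all below DMSO. With Podofilox it read 856, 806 and 697 TPM, all above DMSO. Ldha fell by 0.94 ± 0.08 with Cardamonin (log2, SE; limma adjusted p = 1.49e-10) and by 0.66 ± 0.08 with AEG 3482 (limma adjusted p = 1.18e-07), and rose by 0.44 ± 0.08 with Podofilox (limma adjusted p = 8.6e-05).

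Antimycin A gave Ldha levels of 387, 393 and 400 TPM, also below every DMSO library, and a fall of 0.55 ± 0.08 (log2, SE; limma adjusted p = 6.54e-06). Dihydrorotenone, at 461, 511 and 521 TPM, reached into the DMSO range, and its difference of -0.22 ± 0.08 missed the threshold (limma adjusted p = 0.0807). Diphenyleneiodonium Cl, BerberineA and Clofilium tosylate stood at 508 to 586 TPM in all, largely inside the DMSO range, with differences of -0.07, -0.01 and -0.16.

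Ldhb, the subunit that favours the return from lactate to pyruvate, stood at 49.2 to 52.1 TPM in DMSO. It rose with 6 compounds, to 66.0 to 69.5 TPM with Antimycin A (0.42, limma adjusted p = 1.46e-07) and to 78.3 to 86.4 TPM with AEG 3482 (0.72, limma adjusted p = 1.54e-12). It fell with Cardamonin, to 25.6 to 31.2 TPM, and with Podofilox, to 35.4 to 39.2 TPM. The share of Ldha in Ldha and Ldhb together was 92.0 ± 0.66% in DMSO (SD, n = 6), from 91.2 to 92.8%.

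Antimycin A had Ldha shares of 84.8, 85.4 and 85.9% and AEG 3482 shares of 82.4, 81.5 and 80.6%. Dihydrorotenone had 87.6, 89.7 and 89.6%, while Diphenyleneiodonium Cl, BerberineA and Clofilium tosylate had means of 89.9, 90.1 and 90.2%. Podofilox had 96.0, 95.4 and 94.8%. In these 7 groups no library overlapped DMSO. Each difference had an exact permutation p of 0.0119 and an adjusted p of 0.0254, with 6 shares lower and 1 higher. Without DMSO replicate 2, 0 passed, although these groups stayed apart from the 5 remaining DMSO libraries. The smallest exact p with 5 DMSO libraries is 0.0179. With Cardamonin both subunits fell, and the share of 91.4 ± 1.36% (SD, n = 3) did not differ past the threshold (exact permutation p = 0.429, adjusted p = 0.527).

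**Figure D3:**
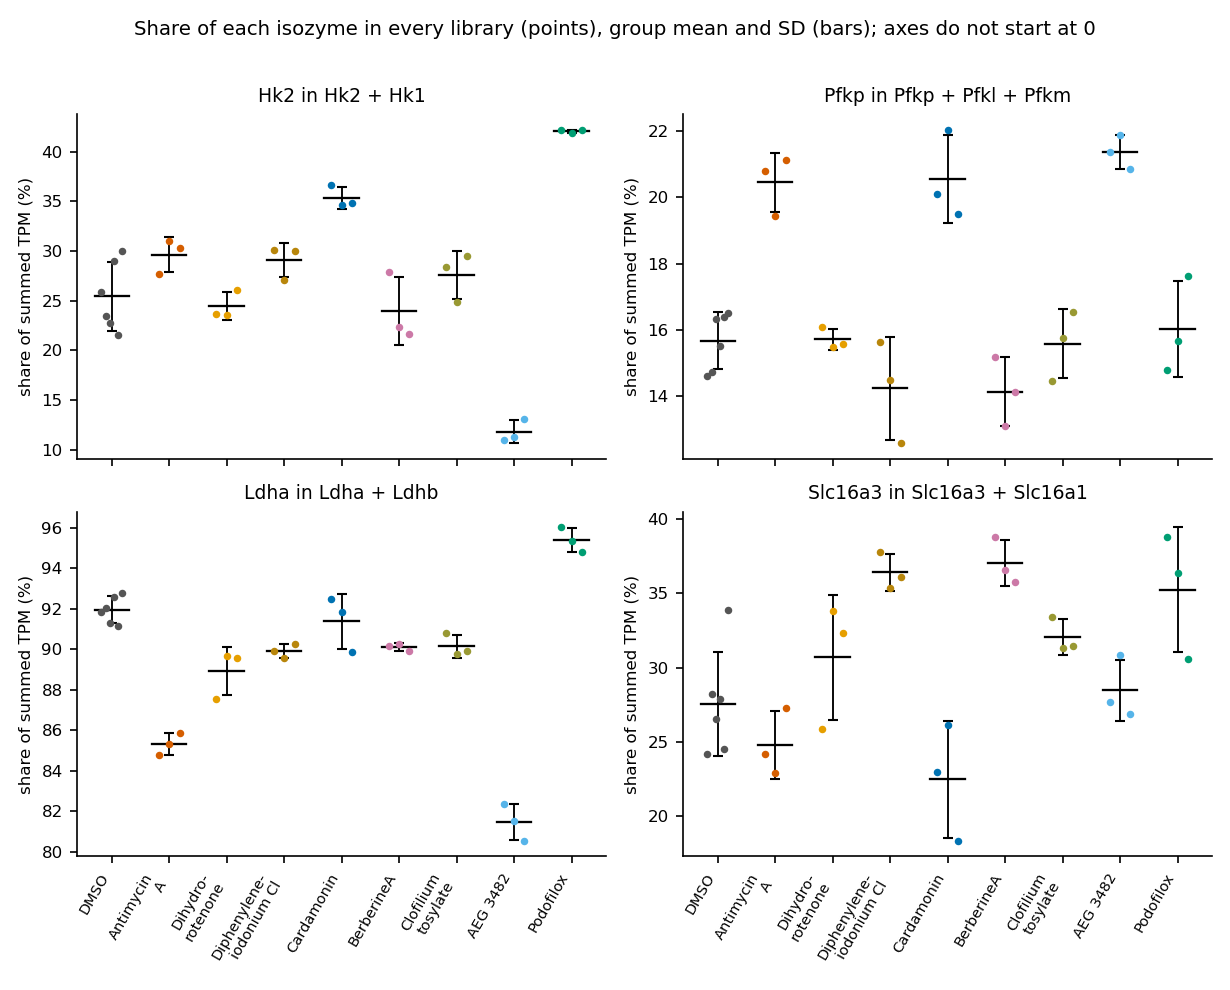
Share of each of 4 genes in the summed TPM of its isozymes (y axis, %, not starting at 0) in every library of the 9 groups (x axis); wide bars are means and error bars the SD. Hk2 is low with AEG 3482 and high with Cardamonin and Podofilox, and the Ldha share is below the DMSO libraries in 6 groups and above them with Podofilox.

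Slc16a3 (chr11:120948480-120960868) encodes MCT4, the transporter through which glycolytic cells export lactate. It stood at 32.3 to 52.6 TPM in DMSO with a median of 37.3 TPM. With Cardamonin it read 22.2, 28.1 and 12.6 TPM and with AEG 3482 18.9, 19.1 and 16.0 TPM, all below DMSO. With Podofilox it read 98.5, 85.6 and 65.7 TPM, all above DMSO. It fell by 0.90 ± 0.18 with Cardamonin (log2, SE; limma adjusted p = 8.15e-05) and by 1.04 ± 0.18 with AEG 3482 (limma adjusted p = 1.32e-05), and rose by 1.09 ± 0.18 with Podofilox (limma adjusted p = 1.69e-05). Without Cardamonin replicate 3, the lowest library, the fall with Cardamonin was smaller, at -0.59 (limma adjusted p = 0.00352).

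With Antimycin A Slc16a3 read 24.8, 22.5 and 30.3 TPM, below the DMSO range, and fell by 0.55 ± 0.18 (log2, SE; limma adjusted p = 0.017). This call was lost without Antimycin A replicate 1 (limma adjusted p = 0.062) or replicate 2 (0.0958). In the other 4 groups it stood at 24.9 to 49.8 TPM and passed no threshold, and the 95% interval reaching farthest from 0 among them, for Diphenyleneiodonium Cl, ran from -0.08 to 0.66. By mean level the order was Podofilox, Diphenyleneiodonium Cl, BerberineA, DMSO, Clofilium tosylate, Dihydrorotenone, Antimycin A, Cardamonin and AEG 3482, and each neighbouring pair from BerberineA onwards overlapped.

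Slc16a1 encodes MCT1, a lactate carrier that works in either direction, and it stood at 97.7 to 103 TPM in DMSO. It fell with 7 compounds, by 1.14 with AEG 3482 (limma adjusted p = 7.66e-14) and by 0.30 to 0.53 with the other 6, and rose by 0.58 with Podofilox, to 149 to 156 TPM (limma adjusted p = 6.6e-08). Slc16a3 made up 27.5 ± 3.53% of Slc16a3 and Slc16a1 together in DMSO (SD, n = 6), from 24.2 to 33.9%. Its share was 36.4 ± 1.23% with Diphenyleneiodonium Cl and 37.0 ± 1.56% with BerberineA (SD, n = 3), with all 6 libraries above DMSO (exact permutation p = 0.0119, adjusted p = 0.0254 each). With Podofilox it was 35.2 ± 4.20%, with 1 library inside the DMSO range (exact permutation p = 0.0238, adjusted p = 0.0476). Without DMSO replicate 2 no share of Slc16a3 passed, and without replicate 3 or 4 only 1 did. The smallest exact p in these tests is 0.0179. With BerberineA the share rose although Slc16a3 itself did not pass the threshold, and Slc16a1 fell by 0.49 (limma adjusted p = 5.79e-06).

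Treatments were also set against each other without the shared DMSO libraries, in 6 pairs, each adjusted over all genes. Cardamonin against AEG 3482 differed in 5 of the 10 genes, 2 higher and 3 lower with Cardamonin, where 55.3% of all genes were called. Hk2 was higher by 1.67 ± 0.13 with Cardamonin (log2, SE; limma adjusted p = 3.14e-11), the largest of the 5 differences, and Slc2a1 by 0.30 ± 0.11 (limma adjusted p = 0.0229). Pfkp, at -0.71 ± 0.09 (limma adjusted p = 3.94e-07), Hk1, at -0.30 ± 0.06 (limma adjusted p = 0.000266), and Ldha, at -0.28 ± 0.09 (limma adjusted p = 0.0134), were lower. Without Cardamonin replicate 3 the differences in Slc2a1 and Ldha did not pass (limma adjusted p = 0.0808 and 0.182), and Slc2a1 also failed without AEG 3482 replicate 1 (0.126). The Ldha difference also failed with median-ratio scaling (limma adjusted p = 0.083), after quantile normalization (0.0583) and in a fit of the 2 groups alone (0.098). Aldoa, Pgk1, Eno1, Pkm and Slc16a3 passed no threshold in this pair, and their 95% intervals ran from -0.22 to 0.04, -0.16 to 0.20, -0.24 to 0.12, -0.15 to 0.15 and -0.28 to 0.57. Without Cardamonin replicate 3, Slc16a3 passed as higher with Cardamonin (log2 0.46, limma adjusted p = 0.0464).

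Podofilox against Cardamonin differed in 8 of the 10 genes, 3 higher and 5 lower with Podofilox, where 57.8% of all genes were called. Slc16a3 was higher with Podofilox by 1.99 ± 0.21 (log2, SE; limma adjusted p = 7.13e-09), Ldha by 1.38 ± 0.09 (limma adjusted p = 3.12e-12) and Pfkp by 0.43 ± 0.09 (limma adjusted p = 0.000247). Slc2a1 at -0.93, Pkm at -0.82, Hk1 at -0.73, Hk2 at -0.33 and Eno1 at -0.24 were lower, the last 2 with limma adjusted p = 0.0291 and 0.0207. The calls for Hk2 and Eno1 were each lost without Podofilox replicate 3 (limma adjusted p = 0.0609 and 0.146) or without Cardamonin replicate 1 (0.079 and 0.0505) or replicate 3 (0.0869 and 0.0529), and that for Hk2 without Podofilox replicate 2 (0.0881). Both were also lost when the 20 most abundant genes were left out of the scaling (limma adjusted p = 0.0581 and 0.0565), where the count was 6. Hk2 failed as well after quantile normalization (limma adjusted p = 0.0944) and with no filter beyond a value above 0 (0.0515). Aldoa and Pgk1 passed no threshold, with intervals of -0.23 to 0.03 and -0.17 to 0.20.

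Antimycin A against Dihydrorotenone, which block different respiratory complexes, differed in 4 of the 10 genes, where 15.5% of all genes were called. Slc2a1 (0.39 ± 0.11, limma adjusted p = 0.0152) and Hk2 (0.44 ± 0.13, limma adjusted p = 0.0177) were higher with Antimycin A, and Aldoa (-0.21 ± 0.06, limma adjusted p = 0.0244) and Ldha (-0.34 ± 0.09, limma adjusted p = 0.0156) lower. Without Dihydrorotenone replicate 1, whose label gives another mouse age, neither Slc2a1 nor Hk2 passed (limma adjusted p = 0.107 and 0.111), Eno1 passed as lower (-0.33, limma adjusted p = 0.0122), and the count was 0 higher and 3 lower. Genes in general read low in that library. With median-ratio scaling Hk2 did not pass (limma adjusted p = 0.054) and Eno1 passed as lower (-0.29, limma adjusted p = 0.0286). The count was then 1 higher and 3 lower. The count was 1 without Antimycin A replicate 1 and 2 without Antimycin A replicate 3 or Dihydrorotenone replicate 2 or 3, and Aldoa was also lost without Antimycin A replicate 2 (limma adjusted p = 0.0878). Antimycin A against Clofilium tosylate differed in 4 genes, all lower with Antimycin A, where 5.21% of all genes were called. These were Aldoa (-0.30), Pgk1 (-0.30), Eno1 (-0.33) and Ldha (-0.39), with limma adjusted p = 0.00484, 0.0478, 0.0265 and 0.0142. The Pgk1 call was lost in 10 alternatives, among them a pseudocount of 0.1 (limma adjusted p = 0.0513), the 2 groups alone (0.0842), summed near-copies (0.0758) and the fits without Antimycin A replicate 1, 2 or 3 or Clofilium tosylate replicate 1 or 3 (0.0661 to 0.209). Without Antimycin A replicate 1 or Clofilium tosylate replicate 1 the count was 1, and without Antimycin A replicate 2 or Clofilium tosylate replicate 3 it was 2.

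Diphenyleneiodonium Cl against Dihydrorotenone differed in 4 genes, all higher with Diphenyleneiodonium Cl, where 3.68% of all genes were called. These were Slc2a1 (0.50 ± 0.11, limma adjusted p = 0.00795), Hk2 (0.56 ± 0.13, limma adjusted p = 0.00992), Aldoa (0.25 ± 0.06, limma adjusted p = 0.0186) and Hk1 (0.24 ± 0.06, limma adjusted p = 0.0329). Without Dihydrorotenone replicate 1, 0 of the 10 genes passed in limma, and without Diphenyleneiodonium Cl replicate 3 only Slc2a1 did. Hk1 was also lost without Diphenyleneiodonium Cl replicate 2 (limma adjusted p = 0.096). With median-ratio scaling of all libraries 3 genes passed, and Aldoa did not (limma adjusted p = 0.0988). BerberineA against Dihydrorotenone differed in 0 of the 10 genes by limma, where 1.51% of all genes were called, and in 3 at an unadjusted p under 0.05 (Hk1, Aldoa and Ldha, each higher with BerberineA).

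Beyond the 10 genes, 79 of 90 genes listed around the pathway passed the filter on low values. Of these, 29 rose and 39 fell with Cardamonin, 37 rose and 25 fell with AEG 3482, 31 rose and 24 fell with Podofilox, and 10 rose and 22 fell with Antimycin A. Over all genes tested, 70.3%, 68.1%, 46.2% and 37.3% were called with these 4 compounds. With Diphenyleneiodonium Cl 12 rose and 10 fell, with Clofilium tosylate 11 and 8, with BerberineA 9 and 11, and with Dihydrorotenone 3 and 6, where 25.7%, 23.4%, 21.7% and 14.4% of all genes were called. Of the 9 other glycolytic enzyme genes tested, 4 of upper and 5 of lower glycolysis, 2 rose and 5 fell with Cardamonin, 5 rose and 2 fell with AEG 3482, 6 rose and 1 fell with Podofilox, and 1 rose and 6 fell with Antimycin A. For Cardamonin and AEG 3482 the share called stood near the 70.3% and 68.1% over all genes. Gapdh, which makes 1,3-bisphosphoglycerate, rose by 0.69 with Cardamonin, 0.50 with AEG 3482 and 0.41 with Podofilox and fell by 0.17 with Antimycin A (limma adjusted p = 3.01e-10, 1.22e-07, 5.36e-06 and 0.0388). Pgam1, a phosphoglycerate mutase, did likewise, with log2 changes of 0.61, 0.20, 0.57 and -0.28. Tpi1, triosephosphate isomerase, rose with AEG 3482 (0.35) and Podofilox (0.48), but its value with Cardamonin was -0.06 (limma adjusted p = 0.453). Gpi1, glucose-6-phosphate isomerase, rose with Diphenyleneiodonium Cl (0.43), Cardamonin (0.39), AEG 3482 (0.59) and Podofilox (0.37).

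At the entry of pyruvate into mitochondria, 5 of 15 genes rose and 7 fell with Cardamonin, 4 rose and 5 fell with AEG 3482, and 5 fell with Antimycin A, where 70.3%, 68.1% and 37.3% of all genes were called. Pdk1 encodes a kinase that inhibits pyruvate dehydrogenase. It stood at 14.1 to 19.2 TPM in DMSO, 3.901 to 7.44 TPM with Cardamonin and 4.47 to 6.76 TPM with AEG 3482, and fell by 1.40 and 1.41 on the log2 scale (limma adjusted p = 1.96e-10 and 2.55e-10). It also fell with Antimycin A (by 0.66, limma adjusted p = 0.000136) and rose with Podofilox (by 0.47, limma adjusted p = 0.00318). These 4 comparisons share their DMSO libraries, and in each Pdk1, Pfkfb3 and Slc16a3 passed the threshold in 1 direction. With Clofilium tosylate, in contrast, Pfkfb3 fell while Slc16a3 did not pass (log2 -0.01, limma adjusted p = 0.981).

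Among the regulators, Hif1a encodes the oxygen-sensitive subunit of a factor known to drive many glycolysis genes. Its transcript stood at 230 to 283 TPM in DMSO, 105 to 133 TPM with Cardamonin and 139 to 158 TPM with AEG 3482, and fell by 1.07 and 0.79 (log2; limma adjusted p = 3.35e-13 and 1.76e-10). With Podofilox its change was -0.04 (limma adjusted p = 0.681), and Egln3, an oxygen sensor that the same factor is known to induce, rose by 0.87 (limma adjusted p = 1.08e-05). Any part of that factor in these changes was not tested. Epas1, which encodes the related HIF2 alpha subunit, fell by 3.69 with Cardamonin and by 3.27 with AEG 3482 (limma adjusted p = 6.29e-18 and 1.34e-16). Myc, a broad activator of glycolysis genes, rose with Cardamonin (0.68), AEG 3482 (0.92) and Podofilox (0.96) and fell with 4 compounds, Antimycin A (-0.23), Dihydrorotenone (-0.21), Diphenyleneiodonium Cl (-0.46) and BerberineA (-0.37).

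In the branches that leave glycolysis, 9 of 15 genes rose and 6 fell with Cardamonin, 8 rose and 5 fell with AEG 3482, and 8 rose and 4 fell with Podofilox, where 70.3%, 68.1% and 46.2% of all genes were called. G6pdx, which opens that branch, stood at 41.5 to 50.2 TPM in DMSO and rose to 207 to 244 TPM with Cardamonin and 194 to 211 TPM with AEG 3482 (log2 2.28 and 2.15). Taldo1, transaldolase, rose by 3.002 with Cardamonin, 2.58 with AEG 3482, 1.28 with Podofilox, 0.72 with Antimycin A, 0.47 with Clofilium tosylate and 0.41 with Diphenyleneiodonium Cl (limma adjusted p from 5.38e-23 to 1.48e-05). Gbe1, the glycogen branching enzyme, rose by 3.30 and 2.37 with Cardamonin and AEG 3482, while glycogen synthase Gys1 fell by 0.82 and 0.49. Got1, of the malate-aspartate shuttle that carries NADH electrons into mitochondria, rose with all 8 compounds, from 0.17 with BerberineA (limma adjusted p = 0.0486) to 0.68 with Cardamonin. Txnip and Arrdc4, arrestins that respond to glucose and restrain its uptake, moved in opposite directions with Cardamonin and in the same direction with AEG 3482 and with Podofilox. Txnip fell by 0.69 with Cardamonin and by 0.72 with Podofilox and rose by 0.22 with AEG 3482 (limma adjusted p = 1.36e-07, 2.07e-07 and 0.0285), whereas Arrdc4 rose by 1.01 with Cardamonin and 0.97 with AEG 3482 and fell by 0.38 with Podofilox (limma adjusted p = 6.17e-14, 2.15e-13 and 8.45e-06).

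**Figure D4:**
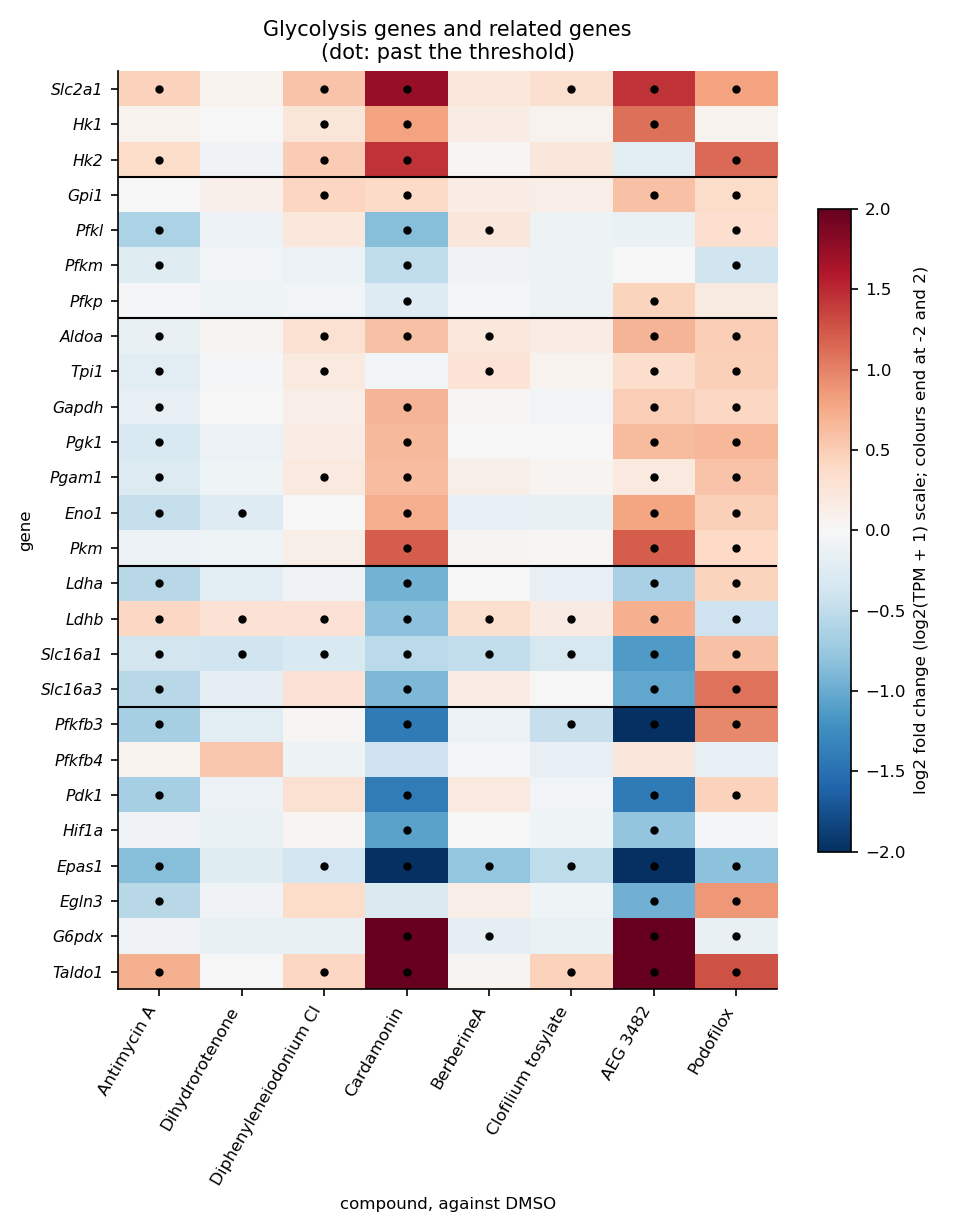
Log2 fold change against DMSO (colour, log2(TPM + 1) scale, ends at -2 and 2) of the 10 genes and of genes from the lists around them (y axis) for the 8 compounds (x axis); dots mark genes past the threshold. Slc16a3, Pfkfb3 and Pdk1 are low with Antimycin A, Cardamonin and AEG 3482 and high with Podofilox, while G6pdx and Taldo1 are high with Cardamonin and AEG 3482.

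The patterns of the 10 genes over the 30 libraries were compared with those of 9614 other protein-coding genes by Pearson correlation of log2(TPM + 1). These libraries share their treatments, so the correlations are a description only. Slc16a3 was most like Pfkfb3 (r = 0.92 over 30 libraries, 0.95 over 9 group means) and Pdk1 (r = 0.89). Slc2a1 was most like Pnpla2, a triglyceride lipase gene (r = 0.98), Taldo1 and Klhl21 (both 0.97). Pkm was most like Chpf2 (r = 0.99), Cdk2ap2 and Clic1, and Hk1 was most like Slc43a2, Myh9 and Mink1 (all 0.98 or 0.97).

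Aldoa, Pgk1 and Eno1 each had Eno1b as the most alike gene (r = 0.93, 0.95 and 0.98), followed by Gapdh for the first 2 and by Plod2 for Eno1. Since 81.8% of the 31-base words of Eno1b occur in Eno1, its likeness to Eno1 is not that of an independent gene. Hk2 was most like Cd1d1 (r = 0.96), Ctsl and Cd24a, Ldha most like Ndufa4l2 (r = 0.92), Cemip and Nxn, and Pfkp, with the weakest likeness, most like Trp53inp2 (r = 0.88). The mean of the 10 genes was most like Pgam1 (r = 0.93) and Gapdh (r = 0.92). Among the 10 genes themselves the highest correlation was that of Pgk1 with Eno1 (r = 0.96), and the lowest was that of Hk1 with Ldha (r = -0.68).

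**Figure D5:**
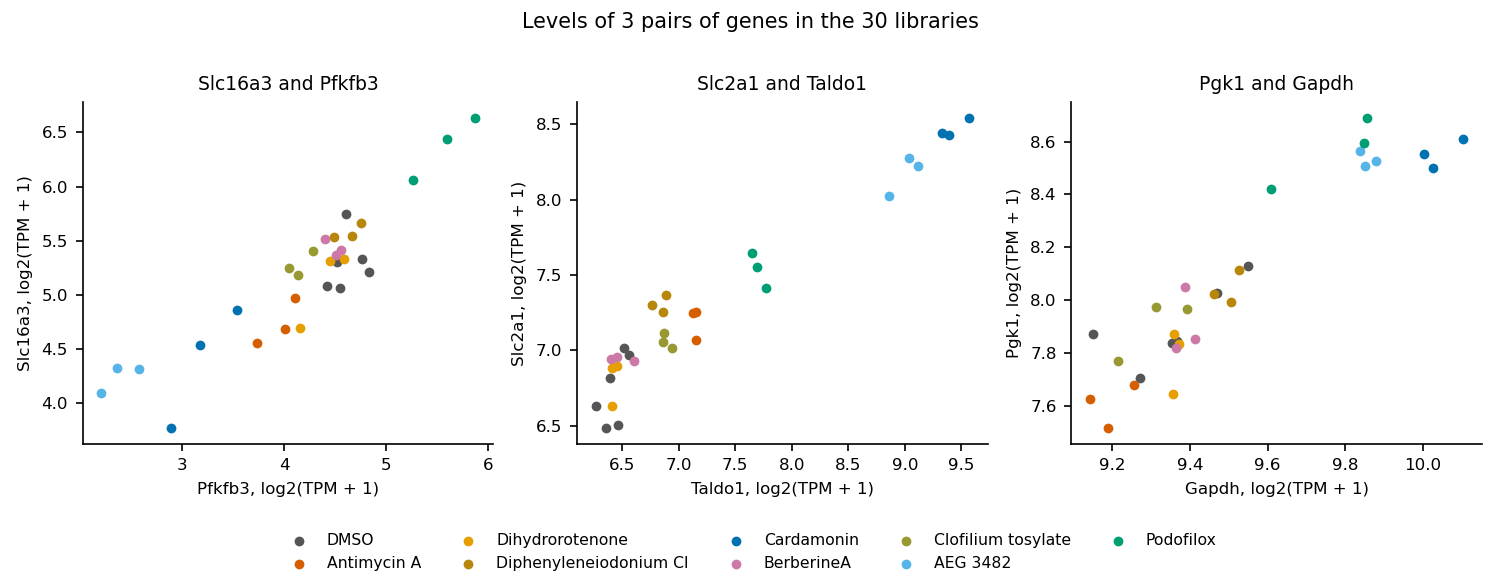
Levels of Slc16a3 and Pfkfb3, of Slc2a1 and Taldo1, and of Pgk1 and Gapdh in the 30 libraries, each axis in log2(TPM + 1) and each point a library coloured by group. Podofilox libraries are highest for Slc16a3 and Pfkfb3, Cardamonin libraries are highest for Slc2a1 and Taldo1, and Antimycin A libraries are at the low end for Pgk1.

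Replicates of a group differed in a way that many of the 10 genes shared. In DMSO, replicate 6 was the highest library for 8 of the 10 genes and replicate 5 the lowest for 7. Dihydrorotenone replicate 1 was the lowest of its group for all 10, and Antimycin A replicate 2 for 7. Genes in general also read low in Dihydrorotenone replicate 1, with a median-ratio scaling factor of 0.922 against 0.985 and 0.983 in its group. That of Antimycin A replicate 2 was 0.968, against 1.03 and 1.026. In DMSO, replicate 6 had the lowest factor, 0.963, and replicate 5 had 0.996, unlike the order of the 10 genes. Such counts were not made over all genes, so they are not read as a feature of these 10. The summed level of the 10 genes was 3142 to 4001 TPM in DMSO, 2869 to 3078 TPM with Antimycin A, 4443 to 5054 TPM with Podofilox, 5779 to 6003 TPM with Cardamonin and 5738 to 6194 TPM with AEG 3482. The last 3 groups did not overlap DMSO, and neither did Antimycin A.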

How the data were processed

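The authors deposited TPM values per Ensembl gene for 30 libraries, 29861 genes, obtained with kallisto 0.43.1 on mm10 per the submitters' processing notes and summarised with tximport per the series text, which also names DESeq2. The listed values of a library sum to 927024 to 937134 TPM rather than 1000000, which can move all levels of a library together. Symbols came from GENCODE M21 (98.8% of identifiers matched). The 10 genes, the gene lists around them and the tests were chosen with earlier results of these data known.

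Here limma 3.58.1 in R 4.3.3 was fitted to log2(TPM + 1), where the pseudocount of 1 understates the change of low genes. Each group had its own mean, all 30 libraries shared 1 estimate of the spread, and the empirical Bayes step used an intensity trend. A gene was tested if 3 or more libraries reached 1 TPM (13644 genes, the 10 among them), and p-values were adjusted by Benjamini-Hochberg within each comparison at a threshold of 0.05. The script was tested on simulated data. Shares of isozymes were tested with exact 2-sided permutation tests over libraries. All 10 genes are named, together with any gene of the lists. Genes of like pattern are the 3 with the highest Pearson correlation for each gene (5 for their mean) among protein-coding genes with a mean of at least 5 TPM. Promoter sequences are RefSeq's on GRCm38.p6. Alternatives covered the pseudocount, the filter, scaling, the intensity trend, the groups in the fit, a replicate block, near-copies (added after seeing the data) and leaving out each of the 30 libraries.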

Additional observations from a re-analysis of the deposited data

Results flagged for a closer look

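In each DMSO group of 6 libraries the highest and the lowest value of a gene or share were set against the others by Dixon's criterion, in 14 tests (10 genes and 4 shares), of which chance alone would single out about 1 in 20. DMSO replicate 6 stood apart for Pkm, at 1487 TPM against a median of 1213 TPM. The same library stood apart for Slc16a3, at 52.6 TPM against a median of 37.3 TPM. Both were single high values in a library that was also highest for most of the 10 genes. Without DMSO replicate 6, Pkm passed the threshold as higher with Diphenyleneiodonium Cl (log2 0.18, limma adjusted p = 0.00962, against 0.149 with it), Pfkp as higher with Podofilox (0.20, limma adjusted p = 0.0438), Slc2a1 as higher with BerberineA (0.25, limma adjusted p = 0.0488), and Aldoa and Hk2 as higher with Clofilium tosylate (0.18 and 0.29, limma adjusted p = 0.00885 and 0.0426). Aldoa with Antimycin A no longer passed (-0.12, limma adjusted p = 0.0592).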

How the results depend on the processing

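Of 80 results for single genes against DMSO, 41 passed the threshold, and 35 of these did so under every alternative run. Of the 39 that did not pass, 30 stayed so. No result that passed changed direction, and 83 of 2760 alternative values changed sign without passing in either fit. Against DMSO, the number of the 10 genes past the threshold moved with BerberineA from 1 to 2 with median-ratio scaling, 2 with a replicate block and 0 in a fit of the 2 groups alone. With Clofilium tosylate it moved from 1 to 2 with a mean of at least 5 TPM, median-ratio scaling or protein-coding genes only, 3 with a replicate block and 0 with the 2 groups alone. With Dihydrorotenone it moved from 1 to 0 with median-ratio scaling, a replicate block or the 2 groups alone, and 2 after quantile normalization. Among all genes called for Dihydrorotenone, 34.4% were higher, against 53.7% with median-ratio scaling and 47.2% after quantile normalization. Diphenyleneiodonium Cl against Dihydrorotenone moved from 4 to 1 with the 2 groups alone. The shares past the threshold (3 for Hk2, 3 for Pfkp, 7 for Ldha, 3 for Slc16a3) were 0 for all 4 when differences of medians were permuted. That test cannot decide the question, because swapping outer libraries between groups can leave both medians unchanged. Groups fully apart therefore cannot reach the smallest exact p with medians. The causes of the other changes were not tested.

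Leaving out 1 DMSO library gave 0 to 3 shares past the threshold for Hk2 and 0 to 7 for Ldha. It gave 0 to 3 for Pfkp and 0 to 4 for Slc16a3. There were 0 for all 4 without DMSO replicate 2, and 1 for Slc16a3 without DMSO replicate 3 or 4. With 5 DMSO libraries the smallest exact p is 0.0179, so groups that stay apart from DMSO can still miss the threshold. Shares were not tested without a treated library, whereas genes were tested without each of the 30 libraries. The numbers of genes past the threshold ran from 9 to 10 for AEG 3482, 9 to 10 for Cardamonin, 8 to 9 for Podofilox, 5 to 7 for Antimycin A, 4 to 5 for Diphenyleneiodonium Cl, 1 to 2 for BerberineA, 0 to 3 for Clofilium tosylate (0 without its replicate 2, 3 without DMSO replicate 6) and 0 to 2 for Dihydrorotenone. Between treatments they ran from 1 to 4 for Antimycin A against Clofilium tosylate, 1 to 3 for Antimycin A against Dihydrorotenone, 0 to 4 for Diphenyleneiodonium Cl against Dihydrorotenone, 4 to 5 for Cardamonin against AEG 3482 and 6 to 8 for Podofilox against Cardamonin.

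Replicate numbers did not pair the libraries. Deviations of same-numbered libraries correlated at -0.05 to 0.12, with 2 of 24 pairs over 0.1, and 10 of 24 libraries correlated best with their own number. With the replicate block, Aldoa and Slc16a3 with Antimycin A, Pfkp with Cardamonin and Eno1 with Dihydrorotenone did not pass (limma adjusted p = 0.0969, 0.0842, 0.0759 and 0.115), and Aldoa and Hk2 with Clofilium tosylate, Slc2a1 with BerberineA and Pkm with Diphenyleneiodonium Cl did (0.00877, 0.012, 0.0115 and 0.0183).

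All cultures are labelled as 1 line, though 1 library carries another mouse age. Doses are unknown, and TPM keeps no depth, so counting error could not be set beside the spread between libraries. A TPM value is a share of a library's RNA and not an amount per cell. Isoforms, protein levels and fluxes were not measured.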

Other observations

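Genes listed around the pathway held other changes that the text above does not describe. Phgdh, which draws 3-phosphoglycerate into serine synthesis, rose by 1.06 with Antimycin A, 1.12 with Clofilium tosylate, 1.13 with Cardamonin and 1.14 with Podofilox on the log2 scale, and fell by 0.44 with AEG 3482 (limma adjusted p = 3.19e-09, 6.38e-09, 1e-10, 4.66e-10 and 0.000271). Pck2, which makes phosphoenolpyruvate in mitochondria, rose with 5 compounds, by 0.57 with Antimycin A, 0.62 with Clofilium tosylate, 0.26 with Cardamonin, 0.26 with AEG 3482 and 0.78 with Podofilox. Gfpt1, which opens the hexosamine branch, fell with 7 compounds, by 0.21 to 0.59, and rose by 0.39 with Podofilox (limma adjusted p = 5.52e-05). Eno2, the neuronal enolase, rose with Diphenyleneiodonium Cl (0.52), BerberineA (0.45), Clofilium tosylate (0.30) and Podofilox (0.68) and fell with Cardamonin (-0.34) and AEG 3482 (-1.23). Pdk4, a further inhibitory kinase of pyruvate dehydrogenase, fell by 1.69 with Cardamonin, 1.09 with Podofilox, 0.58 with AEG 3482, 0.40 with Antimycin A and 0.40 with Clofilium tosylate. Bsg, the chaperone of the lactate transporters, fell by 0.50 with Cardamonin, 0.42 with Podofilox, 0.20 with Antimycin A, 0.19 with Clofilium tosylate and 0.11 with BerberineA, and its value with AEG 3482 was 0.05 (limma adjusted p = 0.253).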
